A study of Mus musculus with 8 samples.

Results

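The miRNAs circulating in plasma of control mice were described from the 2 control arrays (CTRL) of a study of 8 miRNA microarrays. Ranked were the mouse miRNAs that Agilent's software called detected in both control pools, which were 351 of the 1881 mouse miRNAs on the array (18.7%), in order of their mean signal. The mice were female, of the outbred NMRI stock, aged 3 months and weighing 30 to 33 g, and the 6 control mice received only the solvents of the drugs given to the other groups. Those solvents were distilled water for imatinib, which is given by mouth, and saline for doxorubicin, which is injected into the tail vein. The labels do not say whether every control mouse received both. RNA came from 300 µl of plasma pooled from 3 mice, so the controls are 2 pools of 3 mice each, which the labels call biological replicates. The other arrays, 3 pools of mice given doxorubicin (DOX, 4 doses of 3 mg/kg) and 3 of mice given imatinib (IMB, 100 mg/kg daily for 9 days), were used only to see how far pools of 1 group differ and how many control miRNAs were detected on all 8 arrays. Each pool had its own RNA extract, labelling and array, so differences between mice and between arrays cannot be told apart. No test was made, since 2 pools of 1 group hold no comparison of conditions.

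MicroRNAs are short RNAs that guide Argonaute proteins to messenger RNAs, mainly through pairing of the seed near their 5′ end. In plasma they are protected inside vesicles or by bound proteins, and blood cells are their main source. Red cells are rich in miR-451a, which is made without Dicer by cleavage of its hairpin by Argonaute 2, and red cells that burst during bleeding release it, whereas platelets, white cells, endothelium and liver contribute other miRNAs. Plasma was measured and not the cells themselves, so which cells released a miRNA was not measured. More cells of a type cannot be told apart from more RNA per cell.

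The mature sequences below, from RefSeq (GRCm38.p6), belong to miRNAs among the 13 brightest and show how differently built the abundant signals are. Capitals mark the seed, bases 2 to 8. Of the 351 miRNAs, 298 were found in the RefSeq table, as were 1608 of the 1881 on the array. The first lines are miRNAs with long-known roles in blood.
miR-451a: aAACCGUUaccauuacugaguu
miR-21a-5p: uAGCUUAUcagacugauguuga
miR-23a-3p: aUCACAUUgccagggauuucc
miR-16-5p: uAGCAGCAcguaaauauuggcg
miR-223-3p: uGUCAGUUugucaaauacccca
The next lines are miRNAs with numbers of 1000 or above, which were registered later.
miR-5126: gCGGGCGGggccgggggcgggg
miR-6769b-5p: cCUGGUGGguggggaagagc
miR-8110: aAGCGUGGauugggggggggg
miR-6366: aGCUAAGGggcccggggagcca
miR-1224-5p: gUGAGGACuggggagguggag
miR-3473b: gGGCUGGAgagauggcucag
The G content was 13.6% in miR-451a, 22.7% in miR-21a-5p and 27.3% in miR-16-5p. It was 77.3% in miR-5126, whose bases are all G or C, 66.7% in miR-8110 and 61.9% in miR-1224-5p. Lower values were 55% in miR-6769b-5p, 50% in miR-3473b and 45.5% in miR-6366. miR-3963, also numbered above 1000 and among the 13 brightest but not shown, had 10.5%, below miR-451a.

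The signal of a miRNA is Agilent's total over its probes, in units of background-subtracted fluorescence. Signals of different miRNAs also depend on how well each probe binds and on how well each RNA is labelled, so the ranking is one of signal and not of copy number. Each of the 351 miRNAs has 2 to 4 probes. In the 211 with every probe well above background, the brightest probe exceeded the dimmest by a median of 1.61-fold in pool 1 and 1.56-fold in pool 2. The 90th percentile in pool 1 was 4.23-fold. The other miRNAs, with a probe not well above background, are not in these values. Agilent's own error on the signal ran from 7.07% to 9.22% of the signal for the 30 brightest miRNAs, with a median over all 351 of 9.31% in pool 1 and 8.75% in pool 2. No spot was saturated.

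Pool 1 had 355 miRNAs detected and pool 2 had 392. Both pools shared 351, 4 were detected only in pool 1 and 41 only in pool 2. On all 8 arrays 296 of the 351 were detected, and 55 were not. At the edge of the ranking, the dimmest miRNA of all was miR-327, with signals of 1.34 and 1.68 in pools 1 and 2. It was followed by miR-466f-3p with 1.80 and 1.64 and miR-339-3p with 1.59 and 2.60. Just outside it, miR-7052-5p reached 10.7 in pool 2 and was listed at 0.1, the value given to miRNAs not detected, in pool 1. miR-6990-5p and miR-324-3p were likewise detected in pool 2 alone, at 9.74 and 9.22. The brightest detected only in pool 1 was miR-7a-5p, at 3.29. Summed over the 351, the signal was 52910.4 in pool 1 and 69457.6 in pool 2, which was 1.31 times as high, and 332 miRNAs were brighter in pool 2 before any scaling. Shares of the summed signal and log2 differences after scaling are therefore given beside the signals.

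One miRNA stood far above the rest. miR-451a, the red cell miRNA, had a signal of 15082 in pool 1 and 13666 in pool 2, with Agilent errors of 1084 and 980. It held 28.5% of the summed signal in pool 1 and 19.7% in pool 2, a mean of 24.1% ± 6.24 (SD, n = 2 pools), and was 4.96 and 3.40 times as bright as the next miRNA. That miRNA was miR-5126, with 3043 and 4014. miR-6769b-5p followed with 2795 and 3677, and its range over the pools overlapped that of miR-5126. miR-8110 came next with 1405 and 2534, below both values of miR-6769b-5p. From there the unscaled ranges of neighbours overlap. Of the 29 pairs of neighbours among the 30 brightest, the ranges over the pools overlapped in 27, and the exceptions were miR-451a above miR-5126 and miR-6769b-5p above miR-8110. Because pool 2 was the brighter array, an overlap of unscaled ranges does not mean that neighbours changed order. miR-5126, for example, exceeded miR-6769b-5p in each pool.

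**Figure D1:**
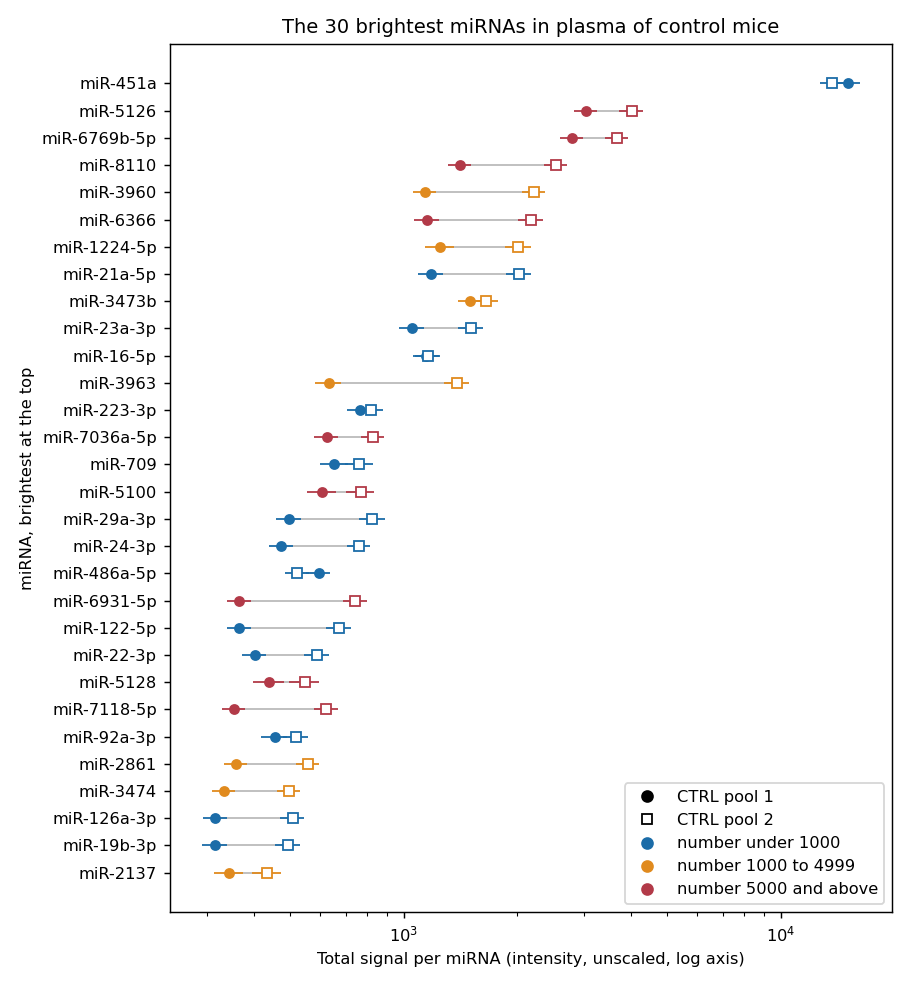
Total signal (intensity, unscaled, log axis) of the 30 brightest miRNAs, with filled circles for pool 1, open squares for pool 2 and bars for Agilent's error; colours mark the number class of the name. miR-451a stands apart at 15082 and 13666, and most others are brighter in pool 2.

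Next in order were miR-3960 (1139 in pool 1 and 2214 in pool 2) and miR-6366 (1149 and 2170). miR-1224-5p, made from a short intron rather than by the usual first cleavage, had 1248 and 2013. miR-21a-5p, which is abundant in many tissues and rises in activated myeloid cells, had 1179 and 2019. miR-3473b had 1493 and 1653. These signals, from 1139 to 2214, overlap throughout and their order differed between the pools, so it is not resolved. miR-23a-3p, used in plasma work as a reference because red cells hold little of it, had 1051 and 1505. miR-16-5p, plentiful in red cells, had 1147 and 1156, a difference below the Agilent error of 89.3 in pool 1. miR-3963 had 632 and 1383. miR-223-3p, the miRNA of granulocytes and platelets, had 763 and 819.

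The lower part of the 30 brightest held further miRNAs of blood, vessels and liver. miR-29a-3p, known for repressing collagen genes, had 496 and 824. miR-24-3p, from the transcripts of miR-23a and of miR-23b, had 473 and 759. miR-486a-5p, a second red cell miRNA, had 593 and 521 and, like miR-451a, was brighter in pool 1. miR-122-5p, the most abundant miRNA of hepatocytes, had 366 and 672. miR-22-3p had 402 and 588. The remaining blood miRNAs among them were miR-92a-3p (454 and 517) and miR-19b-3p (316 and 492) of the miR-17-92 cluster. miR-126a-3p, the endothelial miRNA that lies in an intron of Egfl7, had 316 and 507. The others were miR-709 (654 and 761), miR-7036a-5p (623 and 828), miR-5100 (607 and 768), miR-6931-5p (366 and 743), miR-5128 (439 and 545), miR-7118-5p (353 and 622), miR-2861 (359 and 557), miR-3474 (332 and 496) and miR-2137 (343 and 434). Of the 30, only miR-451a and miR-486a-5p were brighter in pool 1.

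The plasma signal was concentrated in few miRNAs. The 3 brightest, taken in each pool by its own order, held 39.5% in pool 1 and 30.7% in pool 2, and the 10 brightest 56.1% and 51.1% (mean 53.6% ± 3.56, SD, n = 2 pools). The 30 brightest held 73.1% ± 2.62 (SD, n = 2 pools) and the 100 brightest 91.3% ± 1.02 (SD, n = 2 pools). By mean signal 9 miRNAs were enough for 50% of the total and 91 for 90%. By pool these numbers were 8 and 84 in pool 1 and 10 and 96 in pool 2. The share of miR-451a differed by 8.83 percentage points between the pools, and that of the 10 brightest by mean signal by 4.85.

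**Figure D2:**
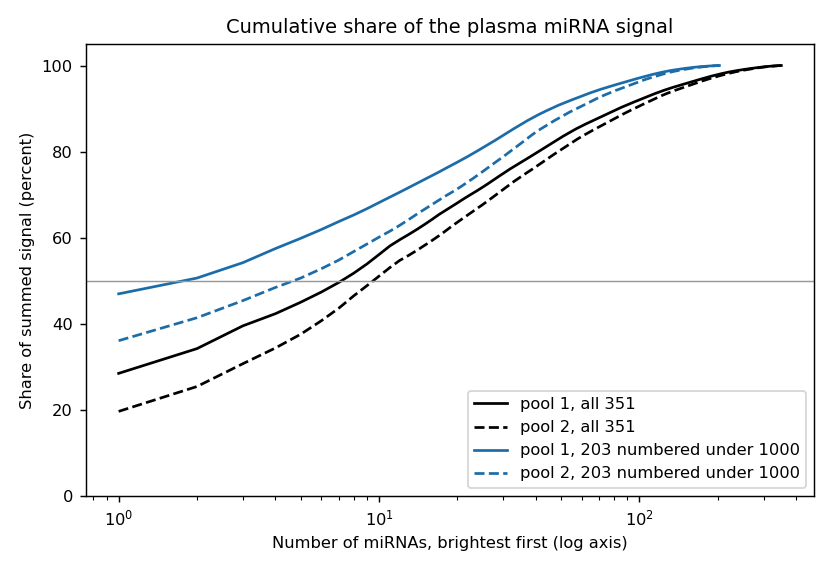
Cumulative share of the summed signal (percent) against the number of miRNAs, brightest first (log axis), for pool 1 (solid) and pool 2 (dashed). Black lines hold all 351 miRNAs and reach 50% after 8 and 10; blue lines hold the 203 with a number under 1000 and start higher, at the share of miR-451a among them.

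Much of the ranking was made of miRNAs with high numbers, though these were detected less often than those under 1000. Those numbered 1000 or above were 148 of the 351 and held 39.3% of the signal in pool 1 and 45.5% in pool 2 (mean 42.4% ± 4.36, SD, n = 2 pools). They made up 7 of the 10 brightest and 16 of the 30 brightest. On the array they were also the majority, since 819 of its 1881 mouse miRNAs were numbered under 1000. By class, 203 of 819 miRNAs under 1000 were detected (24.8%), as were 50 of 280 numbered 1000 to 4999 (17.9%), and 98 of 782 numbered 5000 and above (12.5%). Their base composition differed too. Median GC content was 63.6% over 129 detected miRNAs of 1000 or above and 47.6% over 169 under 1000, and median G content was 45.5% and 23.8%. Among miRNAs of 1000 or above that were not detected in both pools, median GC was 54.5% (796 miRNAs), so those detected were richer in GC than their class. Under 1000 the medians of detected and undetected were both 47.6%. A first base U, the base that Argonaute proteins prefer at the 5′ end, was present in 81 of 169 under 1000 (47.9%) and in 44 of 129 of 1000 or above (34.1%). That share was not computed for undetected miRNAs, so it cannot be set against each class as a whole. Within the class of 1000 or above, signal and GC content had a Spearman rho of 0.26 across 129 miRNAs, and within the class under 1000 of -0.20 across 169. These are descriptions across miRNAs of 2 shared arrays. Whether probe binding of G-rich sequences plays a part in these signals was not tested.

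The red cell list held the largest share of any source list. Of its 7 members on the array 6 were detected in both pools, and they held 33.4% of the signal in pool 1 and 23.5% in pool 2 (mean 28.5% ± 7.03, SD, n = 2 pools). Without miR-451a the rest held 4.92% and 3.81%. Its dimmer members were miR-25-3p, with 348 and 372, and miR-144-3p, which shares a transcript with miR-451a, with 62.5 and 81.1. The other arm, miR-144-5p, was not detected. The ratio of miR-451a to miR-23a-3p, the usual index of red cell release into plasma, was 3.84 on the log2 scale in pool 1 and 3.18 in pool 2. These miRNAs are read by different probes. The level of this ratio therefore depends on probe binding and cannot be set against cut-offs from other methods. The ratio of miR-451a to miR-486a-5p was nearly equal in the pools, 25.4 and 26.2.

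Platelet and white cell miRNAs came next. The platelet list had 4 of 5 members detected and held 3.13% of the signal, led by miR-223-3p and miR-24-3p. Its miR-199a-3p had 88.4 and 116, and miR-191-5p, common in platelets, was not detected. The myeloid list had 6 of 7 detected and held 4.29%, most of it from miR-21a-5p and miR-223-3p, which the platelet list also counts. miR-142a-3p, found in nearly all blood cells, had 61.6 and 147, and miR-146a-5p, which dampens inflammatory signalling, had 64.8 and 92.4. miR-223-5p was not detected. The lymphocyte list had 5 of 6 detected but held 0.618%, and its brightest member was miR-150-5p of mature lymphocytes, with 194 and 217. Its miR-146a-5p and miR-155-5p are also counted in the myeloid list. miR-342-3p had 65.3 and 83.7 and miR-155-5p of activated lymphocytes 12.4 and 12.2, while miR-181b-5p was detected in pool 2 alone, at 8.23.

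Vessel and liver miRNAs were also among the detected. All 4 endothelial members were detected, with 0.830% of the signal. Most of it came from miR-126a-3p (0.597% in pool 1 and 0.729% in pool 2), which the platelet list also counts. Beside miR-126a-3p, its partner arm miR-126a-5p had 25.7 and 41.6, and miR-222-3p had 30.3 and 58.8. miR-221-3p, which has the same seed, had 21.6 and 29.1. The liver list had 5 of 6 members detected and held 1.17% in pool 1 and 1.63% in pool 2. Behind miR-122-5p came miR-192-5p, common to liver, gut and kidney, with 182 and 360. miR-101a-3p had 31.1 and 43.1 and miR-148a-3p 27.9 and 33.3. miR-122-3p was detected in pool 2 alone, at 3.28.

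miRNAs of solid tissues held small shares of the signal, though some ranked in the upper part of the 351. All 7 epithelial members were detected, at 0.360% of the signal, led by the skin miRNAs miR-205-5p (84.8 and 106) and miR-203-3p (39.6 and 45.8). All 5 mesenchymal members were detected, at 0.359%. The brightest was miR-199a-3p (88.4 and 116), which the platelet list also counts, ahead of miR-143-3p of smooth muscle at 44.8 and 80.0. The pancreas list had miR-375-3p of islets detected (26.5 and 42.0) and miR-216a-5p and miR-217-5p of acinar cells not detected. The muscle list, which includes the 3p arm of miR-208a but not its 5p arm, held 0.0423% of the signal. Its detected members were miR-133b-3p (9.99 and 19.0), miR-1a-3p (6.13 and 7.53) and miR-133a-3p (3.96 and 5.94). The strictly muscle-bound miR-206-3p, miR-208a-3p, miR-208b-3p and miR-499-5p were not detected in either pool. The brain list held 0.0758%, from miR-128-3p (21.5 and 41.4), miR-132-3p (8.82 and 11.9) and miR-219a-5p (3.17 and 8.03). The neuronal miR-124-3p, miR-9-5p, miR-9-3p and miR-138-5p were not detected. Of 8 miRNAs from the imprinted Dlk1-Dio3 cluster, miR-494-3p (24.4 and 58.8) and miR-434-3p (2.80 and 3.90) were detected.

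**Figure D3:**
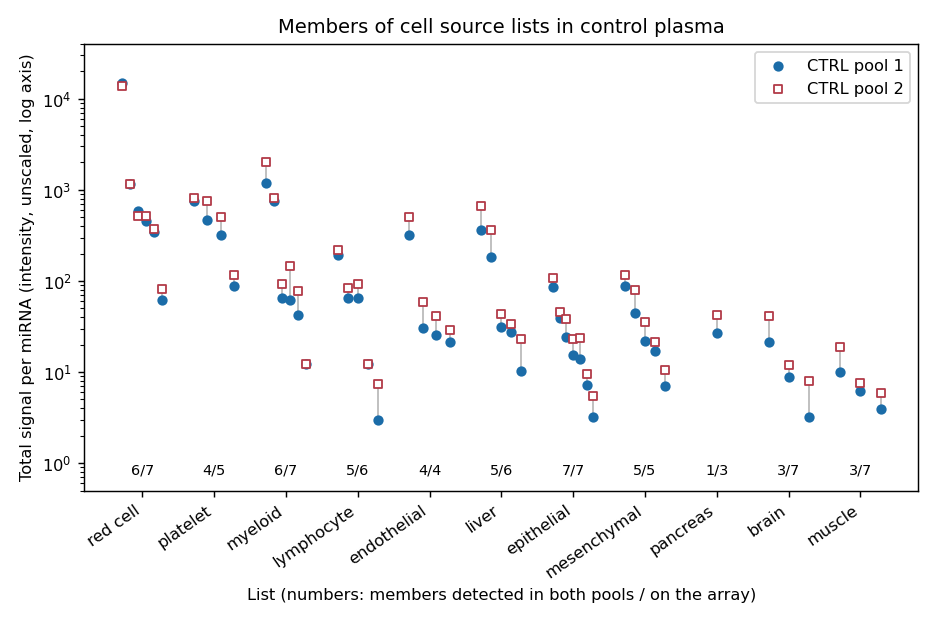
Total signal (intensity, unscaled, log axis) of every detected member of 11 source lists, filled circles for pool 1 and open squares for pool 2; the numbers along the bottom are members detected in both pools over members on the array. Red cell, platelet and myeloid lists reach the highest signals, and all detected members of the muscle list, which leaves out miR-208a-5p, lie under 20.

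Over the 11 lists of cells and tissues, 44 detected members held 37.3% ± 6.02 (SD, n = 2 pools) of the signal, and the other 307 miRNAs were on none of them. The plasma reference list, miRNAs that others use to normalise plasma, held 5.50%. Besides miR-16-5p, miR-23a-3p and miR-24-3p it included miR-93-5p (179 and 189), miR-425-5p (54.6 and 81.6), miR-103-3p (30.8 and 55.6) and miR-484 (14.0 and 20.3), and miR-191-5p was the member not detected.

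One arm of a heart miRNA stood out, chosen here after its values were seen. miR-208a lies in an intron of the cardiac myosin gene Myh6, and its 3p arm, the one usually studied, was not detected in either pool. Its 5p arm ranked 32 with signals of 263 and 436, or 0.497% and 0.627% of the summed signal. That is above every detected member of the muscle list, which does not include this arm. Detection of 1 arm alone was not particular to miR-208a: of 723 hairpins with both arms on the array, 133 had only the 5p arm. Whether the probes of miR-208a-5p also read another RNA was not tested, nor was its origin in heart. The sequence of the 5p arm is given because it alone of this hairpin was detected.
miR-208a-5p: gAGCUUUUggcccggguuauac

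Arms of 1 hairpin are read by different probes, so their signals show which arms were detected and do not measure how much more of one arm there was. Of 723 hairpins with both arms on the array, 19 had both arms detected, 133 only the 5p arm, 78 only the 3p arm and 493 neither. Under number 1000 the 5p and 3p arms alone were about as frequent, with 63 and 61 of 317 hairpins. Among hairpins of 1000 or above, 70 of 406 had only the 5p arm and 17 only the 3p arm. In the 19 hairpins with both arms the 5p signal was the brighter in 10 and the 3p signal in 9, in both pools, which were read by the same probes. The log2 ratio between the arms' signals, in which a constant probe effect cancels between pools, changed between pools by a median of 0.23.

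The brightest such hairpin, miR-486a, had 593 and 521 for its 5p arm against 6.03 and 4.52 for its 3p arm. miR-22 had 402 and 588 for 3p against 3.76 and 4.41 for 5p. miR-140, the cartilage miRNA, had 213 and 293 for 3p and 35.3 and 45.4 for 5p. miR-30a had 186 and 296 for 5p and 4.24 and 10.4 for 3p. miR-150 had 194 and 217 for 5p and 2.33 and 2.15 for 3p. In these hairpins the signals of the arms lay far apart in both pools. miR-142a had 61.6 and 147 for 3p and 42.6 and 77.0 for 5p. miR-574 had 89.1 and 138 for 5p and 35.8 and 64.4 for 3p.

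**Figure D4:**
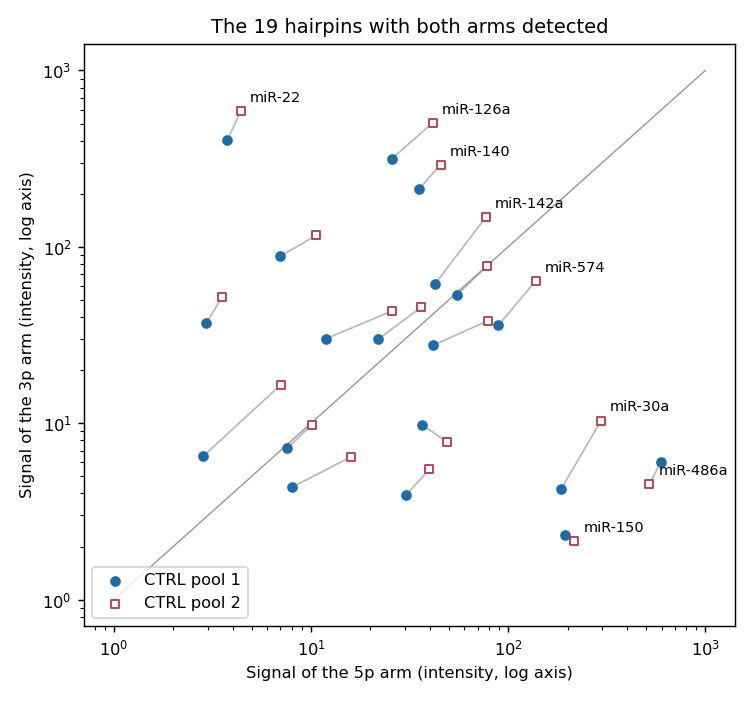
Signal of the 3p arm against the 5p arm (intensity, both axes log) for the 19 hairpins with both arms detected, filled circles for pool 1, open squares for pool 2 and the line of equality in grey. Grey segments join the pools of 1 hairpin; the arms are read by different probes, so the line marks equal signal and not equal amount.

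The miRNAs were also grouped by seed, and no targets were looked up. The 53 miRNAs without a sequence, among them miR-3960, miR-486a-5p and miR-122-5p, are in no group. The 298 miRNAs with a sequence fell into 244 seeds, and 32 seeds had more than 1 detected member, together 86 miRNAs with 18.4% of the signal. The 6 seed groups with the largest share were those of miR-451a alone (24.1%), miR-5126 alone (5.77%), miR-6769b-5p alone (5.29%) and miR-8110 alone (3.15%), then miR-16-5p with its relatives and miR-3473b with miR-3473e (2.78%). The miR-15/16 seed AGCAGCA, known for restraining cell cycle genes, had 6 detected members holding 3.00% ± 0.358 (SD, n = 2 pools). Behind miR-16-5p these included miR-15b-5p with 263 and 314 and miR-15a-5p with 190 and 229. The miR-29 seed AGCACCA had 3 members with 1.48%, and the seed AUUGCAC of miR-92a-3p and miR-25-3p held 1.40%. The seed AAAGUGC of miR-106b-5p, miR-20a-5p and miR-93-5p held 1.35% over 5 members.

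The let-7 family, which shares the seed GAGGUAG and is abundant in differentiated tissue, was the largest of these groups by members. Of 11 on the array 9 were detected, with 2.04% ± 0.0576 (SD, n = 2 pools) of the signal. These sequences show how small the changes between members are.
let-7c-5p: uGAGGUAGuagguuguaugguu
let-7b-5p: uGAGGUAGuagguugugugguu
let-7g-5p: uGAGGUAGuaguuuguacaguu
let-7a-5p: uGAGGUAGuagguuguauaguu
let-7e-5p: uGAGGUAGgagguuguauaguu
let-7c-5p had 232 and 300, let-7b-5p 205 and 270, and let-7g-5p 219 and 244. let-7a-5p had 122 and 178. let-7e-5p was near the bottom with 3.41 and 5.21. Over all members with a sequence, 33 pairs differed by at most 2 changes and 12 of them by 1, involving 44 miRNAs. Signals within such pairs are uncertain, since a probe may also bind the near-identical miRNA. Examples with 1 change were miR-29a-3p beside miR-29c-3p (140 and 225) and miR-19b-3p beside miR-19a-3p (102 and 140).

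Clusters are miRNAs cut from 1 transcript, and their members are also read by different probes. As the names miR-19b-1, miR-92a-1 and miR-16-2 show, miR-19b-3p, miR-92a-3p and miR-16-5p come from more than 1 gene. Each is counted in full, like miR-24-3p, so the shares below are not those of 1 transcript. Of the 12 arms of the miR-17-92 cluster 7 were detected, with 2.05% of the signal, from miR-92a-3p and miR-19b-3p down to miR-17-5p, at 8.04 and 15.9. The miR-106b-25 cluster had 3 of 6 arms detected, with 1.38%, and the partner arms of all 3 were not detected. The miR-23a-27a-24-2 cluster had 3 of 6 arms detected in both pools, with 3.58% of the signal, and its miR-27a-3p had 222 and 415. The cluster miR-23b-27b-24-1, which also yields miR-24-3p, had miR-23b-3p at 55.8 and 85.4 and miR-27b-3p at 47.5 and 84.5. The miR-15b-16-2 cluster had 2 of 4 arms detected and the cluster of miR-144 and miR-451a 2 of 3.

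The 2 pools ranked the miRNAs alike. Spearman's rho of the signals was 0.98 across the 351 miRNAs, which share arrays and probe sets and give no p. Of the 10 brightest 9 were common to both pools, as were 28 of the 30 brightest and 46 of the 50 brightest. After division of each signal by the 75th percentile of its array, taken over miRNAs detected on all 8, the median difference between pools was 0.21 in size on the log2 scale, or 1.16-fold, and 90% of miRNAs lay within 0.68, or 1.61-fold. The median error of such a difference, from Agilent's errors, was 0.19, and 80 of 351 differences (22.8%) exceeded 2 errors. By brightness, the median was 0.19 in the 176 brightest and 0.27 in the 175 dimmest.

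Past 2-fold after scaling were 10 miRNAs higher in pool 2 (2.85% of the 351) and 4 higher in pool 1 (1.14%). The split depended on the scaling: it was 45 and 0 with no scaling, 1 and 2 by mean processed signal per spot, and 12 and 37, turned the other way, in the values of the authors' deposited table. All 14 were in the dimmer part of the ranking, with a mean signal of at most 16.0. The widest were miR-546, with signals of 1.32 and 9.54 and a scaled log2 difference of 2.25, and miR-292a-5p, with 1.39 and 7.64 and a difference of 1.85. miR-1906 (2.73 and 14.0), miR-503-5p (2.90 and 12.1), miR-1901 (2.75 and 10.4) and miR-291a-5p (1.47 and 5.35) followed. miR-292a and miR-291a come from 1 cluster, known from embryonic stem cells. In the other direction were miR-3059-3p (7.25 and 3.68, difference -1.58), miR-669p-3p (6.07 and 3.31), miR-486b-3p (4.95 and 3.51) and miR-486a-3p (6.03 and 4.52), and then miR-139-3p (9.82 and 7.84) and miR-6907-5p (4.94 and 4.26), which were not past 2-fold. The 2 miR-486 3p arms come from hairpins on opposite strands of 1 locus.

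The red cell miRNAs were among the bright signals that differed between pools. After scaling all 6 detected members were lower in pool 2, with a median log2 difference of -0.55, whereas with no scaling 2 of 6 were lower, and 5 of 6 were lower in the values of the authors' deposited table. The scaled difference was -0.75 for miR-451a, -0.79 for miR-486a-5p, -0.59 for miR-16-5p, -0.51 for miR-25-3p, -0.42 for miR-92a-3p and -0.23 for miR-144-3p. That of miR-144-3p lay within 2 of its errors of 0.15. With no scaling the difference of miR-451a was -0.14, within its error of 0.15, and that of miR-486a-5p was -0.19. In the authors' deposited table miR-451a was the member not lower, with a difference of exactly 0, and miR-486a-5p differed by -0.65. miR-451a was the brightest on both control arrays, and processing that gives equal ranks equal values would make this 0 whatever the signals. The processing of that table is not given, so nothing is concluded from the 0. Over all 351 miRNAs the median difference was -0.01 and the middle 50% lay between -0.22 and 0.19. miR-223-3p of platelets and granulocytes was also lower in pool 2, by -0.50. Haemolysis of the samples was not tested.

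**Figure D5:**
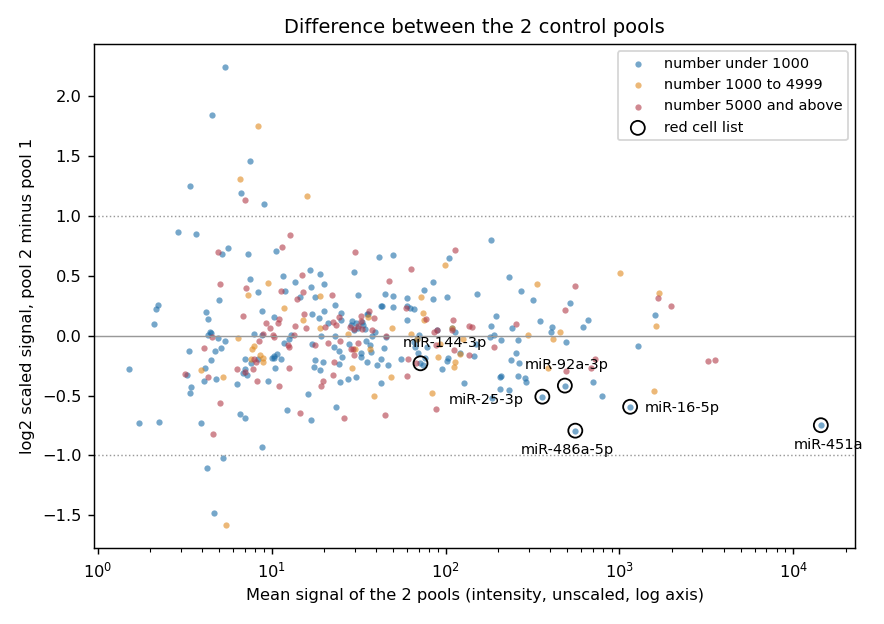
Scaled log2 signal of pool 2 minus pool 1 against the mean signal (intensity, log axis) for the 351 miRNAs; colours mark the number class, rings the red cell list and dotted lines 2-fold. The 6 ringed miRNAs lie between -0.79 and -0.23, and the 14 points past 2-fold all lie at low signal.

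The control pair was set beside the pool pairs of the other groups. Over the 296 miRNAs detected on all 8 arrays, rho was 0.99 for the control pair, 0.98 for each of the 3 DOX pairs and from 0.94 to 0.97 for the 3 IMB pairs. The median scaled difference was 0.20 in size for the control pair, 0.19 to 0.22 for DOX and 0.18 to 0.46 for IMB, and 2 miRNAs were past 2-fold in the control pair, 4 to 10 in DOX and 6 to 47 in IMB. The difference of miR-451a between the control pools, -0.75, compares with -0.65, -0.52 and 0.14 for DOX pairs and 0.01, -0.30 and -0.31 for IMB pairs. Each pair of a group shares pools with the other pairs of that group.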

How the data were processed

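Plasma RNA (3.1 µl per pool, labelled with Cy3) was hybridised to 1-colour Agilent miRNA arrays. The authors deposited scanner output, where each spot has a linear intensity. The submitters' processing notes name Agilent Feature Extraction 11.5.1.1. Background was subtracted and arrays were not scaled to each other, per the file headers. Each miRNA has 30 spots over 2 to 4 probes, and the software gives 1 total signal, its error and a detection call. The deposited table of the authors holds log2 values, with processing not given in the sources used here, and served as an alternative. The number of arrays limits the precision.

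Values used were the total signal, unscaled, and for differences the log2 signal scaled to the 75th percentile. Tools were Python 3.11.15, pandas 2.3.3, scipy 1.17.1, R 4.3.3 and limma 3.58.1 (normexp alternative, offset 50). The steps were tested on simulated data. Named were the 30 brightest miRNAs, the 4 brightest members of each list and those not detected, the 8 brightest hairpins with both arms, the 6 largest seed groups, the 6 widest pool differences per direction and the 3 dimmest and 3 brightest at the detection limit. Members and lists were chosen with earlier results of these data known.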

Additional observations from a re-analysis of the deposited data

How the results depend on the processing

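Of 66 values under an alternative setting, 49 stayed within the spread of the pools or within 1.5 times the count, and 17 moved. Some could not move, since a signal over 3 times Agilent's error held for the same 351 miRNAs as the detection call. The limits also differ: with normexp the red cell list at 24.21% stayed within its SD of 7.03, while let-7 moved past its SD of 0.0576. Leaving out the miRNAs numbered 1000 or above makes the total smaller and takes away 7 of the 10 brightest. The share of the 10 brightest then moved to 64.15% and the number holding 50% of the signal to 4. The red cell list moved to 49.08%, the let-7 seed group to 3.55% and the largest seed group to 41.53%. With normexp the 10 brightest held 45.67%, 14 miRNAs held 50% and let-7 held 2.096%, and with its offset of 50 subtracted again, chosen after seeing the data, these were 51.44%, 10 and 2.033%, back within those limits. With the brightest probe of each miRNA, chosen after seeing the data, let-7 held 2.155%. Without a detection filter rho between pools was 0.9492. With no scaling, or with a 75th percentile over all mouse miRNAs (which is 0.1 on both arrays and so scales nothing), the median difference was 0.6041 and 45 miRNAs were past 2-fold. The median log2 difference of all miRNAs was 0.60 with no scaling and 0.20 with summed signal. Past 2-fold were 3 by mean processed signal per spot, 49 by the authors' values and 0 in the brightest part of the ranking. The cause of the other moves was not tested. Leaving out 1 pool gives the value of the other pool, which says nothing about stability beyond the spread of the pools already given. No paired analysis was possible because no groups were compared and no test was made. The lowest signals have errors of up to 33.0%, so the order of the dimmest miRNAs is not resolved.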
